A study of Mus musculus with 6 samples.

Results

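The killer lectin-like receptors are surface proteins by which natural killer (NK) cells and cytotoxic CD8 T cells sense stressed, infected or healthy neighbours. Some carry an inhibitory signal, as the heterodimer of NKG2A (gene Klrc1) and CD94 (gene Klrd1) does when it meets the non-classical MHC molecule Qa-1, and others activate killing, as NKG2D (gene Klrk1) does when it meets stress-induced ligands. In mouse most of these genes lie together in the NK gene complex. Klrb1c, whose product carries the NK1.1 antigen in C57BL/6 mice, and Ncr1, which encodes the immunoglobulin-like receptor NKp46, are used as markers of NK and related innate lymphoid cells, whereas CD8 T cells that have met antigen can also express Klrc1, Klrd1, Klrk1 and Klrg1.

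9 genes were taken by their symbols from the 57180 rows of a table of lung RNA-sequencing counts: Klrc1, Klrc2, Klrd1, Klrg1, Klrk1, Klre1, Klrb1c, Klra8 and Ncr1. They were chosen by symbol as receptors shared by NK and CD8 T cells, with the NK-restricted Klrb1c and Ncr1 for contrast, and this selection drew on fold changes already computed between the groups compared here. All 9 were found, and all 9 passed the filter on low counts that left 16913 genes tested. The libraries came from lungs of 3 FTO-overexpressing (FTO_OE) and 3 wild-type (WT) mouse samples, all exposed to cigarette smoke in a study modelling chronic obstructive pulmonary disease. FTO is an enzyme that removes the methyl group from N6-methyladenosine in RNA. The labels give neither the strain, age or sex of the animals, nor the length of exposure, the construct or promoter that raised Fto, or whether each library came from its own animal, so the spread between libraries may be technical in part. Unexposed lungs were not analysed here. Because of how they were selected, the levels and fold changes of the 9 genes are a description, and no test of them is used as support.

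Library totals ran from 16731850 to 21444907 counts in FTO-overexpressing lungs and from 18044267 to 19389115 in wild-type lungs. Fto stood at 667.0, 651.1 and 741.6 TMM-normalised CPM (read counts scaled to a library size of 1e+06) in the overexpressing libraries and at 66.3, 69.9 and 68.7 CPM in the wild-type ones, which fits the labels of all 6. TMM is edgeR's scaling for library composition. Lung epithelial and endothelial markers summed to between 35489 and 42835 CPM in overexpressing lungs and between 44388 and 49973 CPM in wild-type lungs, with none at 0. Haemoglobin genes took 3.27%, 1.81% and 0.368% of counts in FTO-overexpressing replicates 1, 2 and 3 and 2.26%, 1.54% and 0.856% in wild-type replicates 1, 2 and 3. Wild-type replicate 1 differed from the other wild-type libraries in several gene lists. Its summed CPM was 2.05 times their mean for the 9 receptor genes, 1.95 times for 8 B cell markers and 1.92 times for haemoglobin genes. It was 1.29 times for myeloid markers, 1.20 times for 16 T cell markers and 0.728 times for gamma-delta T cell markers. The T cell marker sums were 155.8, 147.5 and 112.1 CPM in wild-type replicates 1, 2 and 3. Among the 9 receptor genes, fold changes that wild-type replicate 1 moved by over 1.5 times, or that its level is named for, are given with and without it. Fold changes of other genes are given with all libraries only.

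All 9 genes were higher on average in FTO-overexpressing lungs, but by very different amounts. Fitted fold changes ran from 14.3-fold for Klrc1 to 2.08-fold for Ncr1, with Klrg1, Klrk1, Klrd1, Klrc2, Klre1, Klra8 and Klrb1c between them in that order. The median log2 fold change of the 9 was 1.85, beside 0.0066 over all genes tested. The order depended on wild-type replicate 1. Without that library Klrc1 led at 17.6-fold, with Klra8 next at 14.7-fold and then Klrg1 at 11.9-fold. They were followed by Klrk1 at 6.90-fold, Klre1 at 6.14-fold, Klrd1 at 5.68-fold, Klrc2 at 5.13-fold, Ncr1 at 4.13-fold and Klrb1c at 3.17-fold, and the median was 2.62 on the log2 scale. Klrc1 stood first, and the NK-restricted Klrb1c and Ncr1 were among the lowest, both with and without that library. The low place holds for that pair only. Klra8 and Klre1, the latter also an NK cell receptor gene, were below Klrd1 with all libraries and above it without that library. In bulk tissue a higher count can come from more cells of a type or from more RNA per cell, and these cannot be told apart.

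**Figure D1:**
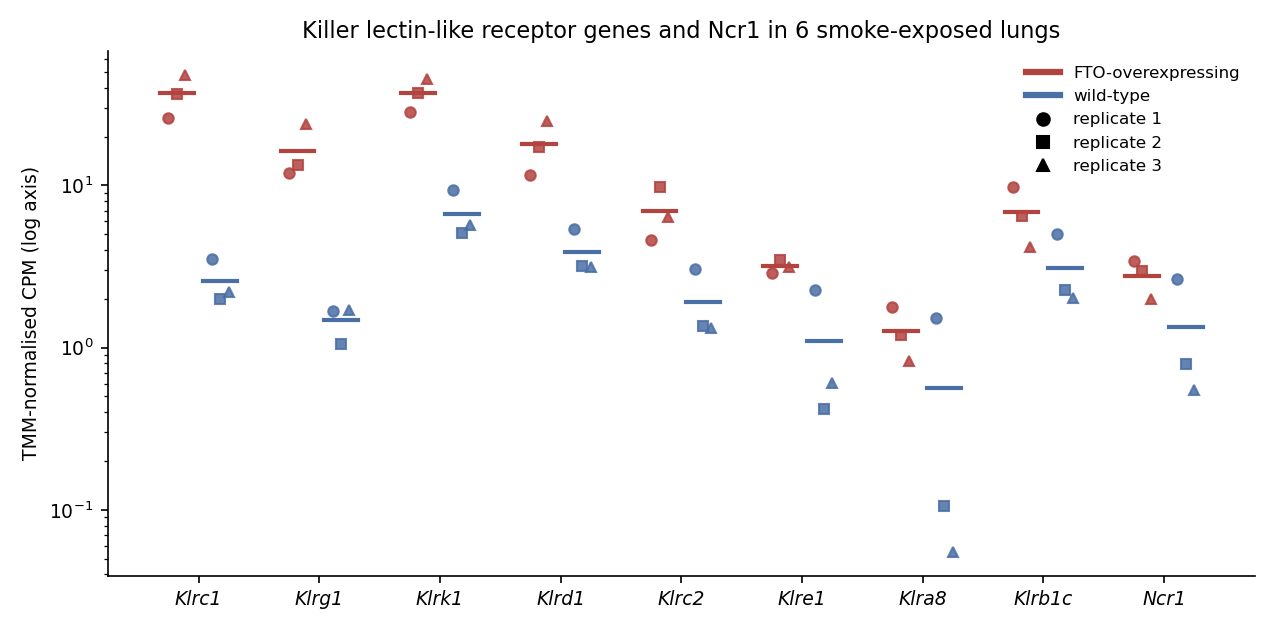
TMM-normalised CPM on a log axis for each of the 9 genes, with FTO-overexpressing libraries in red left of wild-type libraries in blue; symbols mark the replicates and bars the group means (n = 3). Klrc1 stood at 26.0 to 48.3 CPM in overexpressing lungs and at 2.00 to 3.53 CPM in wild-type lungs, while Ncr1 overlapped between the groups.

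Klrc1 (ENSMUSG00000030167), the gene of the inhibitory receptor NKG2A, was at 26.0, 36.5 and 48.3 CPM in FTO-overexpressing replicates 1, 2 and 3 and at 3.53, 2.00 and 2.20 CPM in wild-type replicates 1, 2 and 3. Every overexpressing library lay far above every wild-type one, with means of 36.9 ± 11.1 CPM in overexpressing and 2.58 ± 0.831 CPM in wild-type lungs (SD, n = 3 each), and the fitted difference was 14.3-fold (95% interval 8.83 to 23.2). Klrd1 (ENSMUSG00000030165), the gene of its partner CD94, was at 11.7, 17.2 and 25.1 CPM in the overexpressing libraries and at 5.37, 3.21 and 3.14 CPM in the wild-type ones. The groups did not overlap here either, yet the difference was smaller, at 4.60-fold (95% interval 2.70 to 7.85).

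The balance between the NKG2A gene and its partner gene therefore differed between the groups. The ratio of Klrc1 to Klrd1 counts within a library was 2.23, 2.12 and 1.93 in the overexpressing libraries and 0.653, 0.623 and 0.702 in the wild-type ones. This ratio varied little within each group, and no library of 1 group came near the other, although Klrc1 itself varied by 1.86 times between overexpressing replicates 3 and 1. Klrd1 followed Klrk1 more closely: the ratio of Klrk1 to Klrd1 counts was 2.44, 2.16 and 1.82 in overexpressing lungs and 1.74, 1.59 and 1.81 in wild-type lungs, so the lowest overexpressing library nearly met the highest wild-type one.

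Klrc2 (ENSMUSG00000052736), the paralogue next to Klrc1, encodes NKG2C, which also pairs with CD94 but activates. Its level was 4.63, 9.79 and 6.37 CPM in FTO-overexpressing lungs and 3.04, 1.37 and 1.32 CPM in wild-type lungs. The groups stayed apart by a smaller margin than for Klrc1, since wild-type replicate 1 reached most of the way to overexpressing replicate 1, and the fitted difference was 3.62-fold (95% interval 1.86 to 7.02) with all libraries and 5.13-fold (95% interval 2.77 to 9.52) without wild-type replicate 1. The difference was 3.16-fold without wild-type replicate 2 and 3.14-fold without wild-type replicate 3. The ratio of Klrc1 to Klrc2 counts was 5.64, 3.72 and 7.60 in overexpressing lungs and 1.15, 1.46 and 1.67 in wild-type lungs. The highest wild-type ratio was well under the lowest overexpressing one. Counts of Klrc1, Klrc2 and Klra8 were not whole in some libraries, as can happen where reads are split between similar genes, so the share of reads between close paralogues is uncertain.

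Klrk1 (ENSMUSG00000030149), the NKG2D gene, stood at 28.4, 37.1 and 45.6 CPM in overexpressing libraries and 9.34, 5.10 and 5.67 CPM in wild-type libraries. All overexpressing libraries were above all wild-type libraries, with means of 37.0 ± 8.59 CPM in overexpressing and 6.70 ± 2.30 CPM in wild-type lungs (SD, n = 3 each) and a fitted difference of 5.52-fold (95% interval 3.60 to 8.46). Its share of the summed counts of the 9 genes was nearly the same in both groups, with means of 28.6% in overexpressing and 30.4% in wild-type libraries. The Klrc1 share was 28.2% in overexpressing and 11.7% in wild-type libraries, and the Klrb1c share 5.81% in overexpressing and 13.4% in wild-type libraries.

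Klrg1 (ENSMUSG00000030114) encodes an inhibitory receptor for cadherins that marks differentiated effector T cells and mature NK cells. It stood at 12.0, 13.4 and 23.8 CPM in FTO-overexpressing lungs and at 1.68, 1.05 and 1.71 CPM in wild-type lungs. The 2 groups were widely apart, at 11.05-fold (95% interval 6.41 to 19.1). Klrg1 was also the 1 member that was not highest in replicate 1 among the wild-type libraries. Klre1 (ENSMUSG00000050241) encodes NKG2I, an NK cell receptor chain that pairs with the products of Klri1 or Klri2 in mouse. It was at 2.90, 3.47 and 3.14 CPM in overexpressing lungs and at 2.28, 0.421 and 0.606 CPM in wild-type lungs. Its overexpressing libraries agreed closely, and the wild-type spread came from replicate 1, which alone approached them. The fitted difference was 2.87-fold (95% interval 1.16 to 7.09) with all libraries and 6.14-fold (95% interval 3.58 to 10.5) without wild-type replicate 1. It was 2.19-fold (95% interval 0.941 to 5.08) without wild-type replicate 2 and 2.35-fold (95% interval 0.891 to 6.19) without wild-type replicate 3.

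The NK-restricted pair had smaller fold changes than Klrc1. Klrb1c (ENSMUSG00000030325) was at 9.82, 6.49 and 4.15 CPM in overexpressing replicates 1, 2 and 3 and at 4.99, 2.26 and 2.04 CPM in wild-type replicates 1, 2 and 3. Ncr1 (ENSMUSG00000062524) was at 3.41, 2.96 and 1.98 CPM in the same overexpressing libraries and at 2.66, 0.789 and 0.551 CPM in the wild-type ones. For both genes the groups overlapped, because wild-type replicate 1 exceeded overexpressing replicate 3. Each overexpressing library still lay above the wild-type library of its own number. The fitted difference was 2.20-fold for Klrb1c (95% interval 1.10 to 4.40) and 2.08-fold for Ncr1 (95% interval 0.844 to 5.13). Without wild-type replicate 1 it was 3.17-fold for Klrb1c (95% interval 1.66 to 6.08) and 4.13-fold for Ncr1 (95% interval 2.17 to 7.85). Without wild-type replicate 2 it was 1.93-fold for Klrb1c (95% interval 0.877 to 4.27) and 1.72-fold for Ncr1 (95% interval 0.638 to 4.66). Without wild-type replicate 3 it was 1.88-fold for Klrb1c (95% interval 0.894 to 3.95) and 1.61-fold for Ncr1 (95% interval 0.690 to 3.77).

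Klra8 (ENSMUSG00000089727) encodes Ly49H, an activating receptor for a mouse cytomegalovirus protein, and only some mouse strains carry the gene. It had the fewest reads of the 9, with 35, 21 and 18 counts in FTO-overexpressing replicates 1, 2 and 3 and 27.72, 2 and 1 counts in wild-type replicates 1, 2 and 3. The wild-type group thus held 1 library at the overexpressing level and a pair close to 0. The fitted difference was 2.25-fold (95% interval 0.505 to 10.04) over all libraries and 14.7-fold (95% interval 4.84 to 44.4) without wild-type replicate 1, so that library alone moved Klra8 across most of the range of the 9 genes. The second value rests on 3 wild-type counts in all. The difference was 1.60-fold (95% interval 0.355 to 7.18) without wild-type replicate 2 and 1.56-fold (95% interval 0.394 to 6.19) without wild-type replicate 3.

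Promoter sequences, from 250 bases before to 50 bases after the annotated start, were taken from RefSeq for GRCm38.p6, where 7 of the 9 genes had an entry; Klrd1 and Klrg1 had none. They are shown for Klrc1 and Klrc2, adjacent genes at 14.3-fold and 3.62-fold, for Klrk1 and for Ncr1 as the NK-restricted contrast. Capitals mark the core motif of RUNX factors, TGTGGT or its reverse complement ACCACA, and both strands were searched.
Klrc1, chr6:129678924-129679223, strand -: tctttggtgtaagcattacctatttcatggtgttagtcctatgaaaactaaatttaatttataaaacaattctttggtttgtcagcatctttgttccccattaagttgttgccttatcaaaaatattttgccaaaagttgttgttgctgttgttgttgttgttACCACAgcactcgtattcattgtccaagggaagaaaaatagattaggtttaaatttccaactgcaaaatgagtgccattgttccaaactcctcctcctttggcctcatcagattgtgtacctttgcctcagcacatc
Klrc2, chr6:129660547-129660846, strand -: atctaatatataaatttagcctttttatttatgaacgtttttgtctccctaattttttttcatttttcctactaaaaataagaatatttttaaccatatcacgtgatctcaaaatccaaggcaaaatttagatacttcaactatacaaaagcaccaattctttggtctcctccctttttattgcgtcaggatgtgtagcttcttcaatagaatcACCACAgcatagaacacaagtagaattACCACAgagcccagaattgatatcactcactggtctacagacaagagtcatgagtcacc
Klrk1, chr6:129623815-129624114, strand -: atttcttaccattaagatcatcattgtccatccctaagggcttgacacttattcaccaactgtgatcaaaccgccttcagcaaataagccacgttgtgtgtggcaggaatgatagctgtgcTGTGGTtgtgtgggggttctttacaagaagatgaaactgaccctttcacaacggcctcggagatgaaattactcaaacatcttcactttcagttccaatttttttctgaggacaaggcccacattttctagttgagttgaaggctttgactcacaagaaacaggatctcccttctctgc
Ncr1, chr7:4337465-4337764, strand +: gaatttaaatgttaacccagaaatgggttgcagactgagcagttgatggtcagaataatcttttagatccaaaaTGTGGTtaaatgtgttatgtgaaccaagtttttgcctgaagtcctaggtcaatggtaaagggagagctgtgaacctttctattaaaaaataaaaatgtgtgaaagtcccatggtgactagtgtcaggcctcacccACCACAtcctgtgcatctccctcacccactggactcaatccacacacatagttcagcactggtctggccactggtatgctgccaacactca
The RUNX core was present in a window of 6 of the 7 genes, Klrc1, Klrc2, Klrk1, Klre1, Klrb1c and Ncr1, and in 18.9% of the 27025 genes with a promoter entry. Klrc2 and Ncr1 held it at 2 places each, and Klra8 held none. Klrc1, at 14.3-fold, and Ncr1, at 2.08-fold, both held it. With 7 genes searched, and none of them Klrd1 or Klrg1, the motif cannot be related to the fold change. The T-box half-site GGTGTG (reverse complement CACACC) was in no window of the 7 genes and in at least 1 window of 21.4% of all genes with an entry. The STAT motif TTCNNNGAA was in no window of the 7 genes and in at least 1 of 9.55% of all. TGTGGT and GGTGTG can overlap through the letters GGT, and each was counted by itself. A match in such a window is a description of its letters and does not show that a factor binds there.

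**Figure D2:**
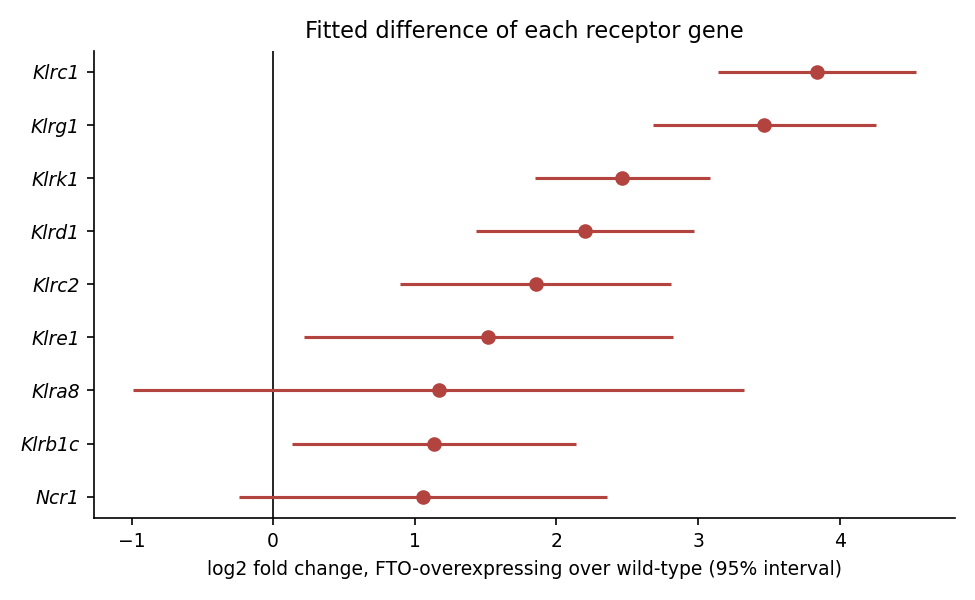
Fitted log2 fold change of each gene, FTO-overexpressing over wild-type, with its 95% interval (edgeR, n = 3 libraries a group). The values run from 3.84 for Klrc1 to 1.06 for Ncr1, and the intervals of Klra8 and Ncr1 include 0.

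Within the overexpressing group the genes fell into 3 sets by which library was highest. Klrc1, Klrd1, Klrg1 and Klrk1 were highest in replicate 3, at 1.60 to 2.15 times the level of replicate 1. Klrb1c, Klra8 and Ncr1 were highest in replicate 1, and replicate 3 held 0.423, 0.467 and 0.582 times its level. Klrc2 and Klre1 were highest in replicate 2, with replicate 3 at 1.38 and 1.08 times replicate 1. The T cell markers moved with the first set, since their summed CPM in overexpressing replicate 3 was 2.13 times that in replicate 1. The 12 NK cell markers, which include the granule genes Gzma, Prf1 and Nkg7 that CD8 T cells share, stood at 1.61 times. The part of T cell number in these differences was not tested.

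**Figure D3:**
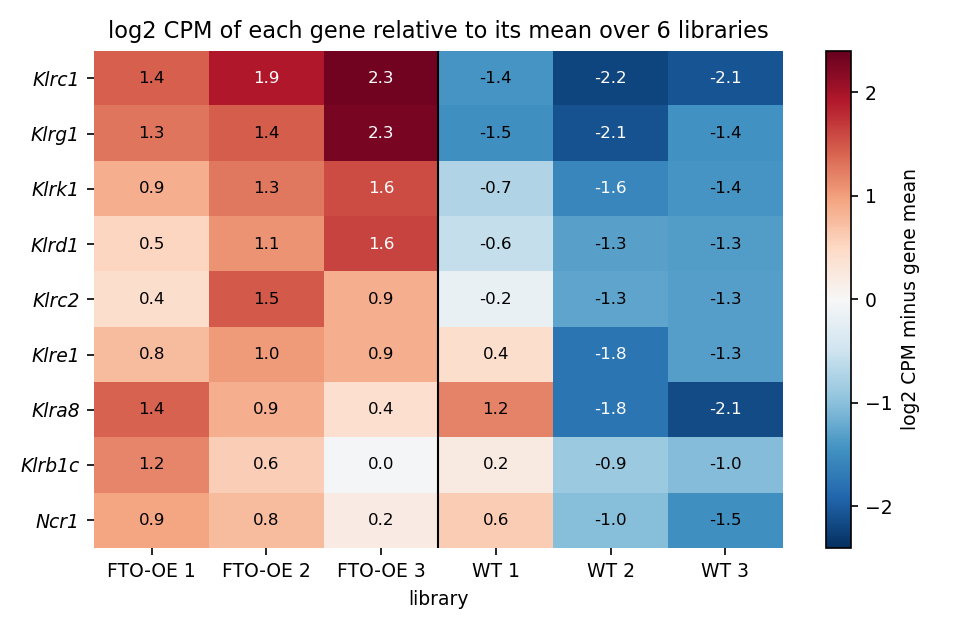
log2 CPM of each gene minus its mean over the 6 libraries; rows are genes in order of fold change, columns are FTO-overexpressing (FTO-OE) libraries and then wild-type (WT) libraries. Klrc1 runs from 2.32 in overexpressing replicate 3 to -2.20 in wild-type replicate 2, while Klra8 and Ncr1 are above their own means in wild-type replicate 1.

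Profiles were also compared over all 6 libraries. The distance between a pair of genes was taken as the root mean square difference of their log2 CPM after each gene was centred on its own mean. The closest pairs were Klrd1 with Klrk1 (0.21), Klrb1c with Ncr1 (0.29) and Klrc1 with Klrg1 (0.33). The farthest pair was Klrc1 with Klrb1c (1.46). Klra8 was closest to Ncr1 (0.52), and Klre1 to Klrc2 (0.39). These distances did not follow the split by highest overexpressing library: Klrd1 and Klrk1 lay closer to Klrc2 (0.39 for Klrd1 and 0.43 for Klrk1) than to Klrc1 (0.82 for Klrd1 and 0.66 for Klrk1).

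Fold changes of direct neighbours on the chromosome were far apart for some pairs and close for others. On chromosome 6, by the order of RefSeq genes in GRCm38.p6, Klre1, Klrd1 and Klrk1 follow each other directly, then come Klrc3, Klrc2 and Klrc1. Klrc1, at 14.3-fold, and Klrc2, at 3.62-fold, are direct neighbours. Klrd1, at 4.60-fold, and Klrk1, at 5.52-fold, are neighbours with similar values and the closest profiles of the 9. Klre1, at 2.87-fold, was below its neighbour Klrd1 with all libraries but above it without wild-type replicate 1, at 6.14-fold for Klre1 and 5.68-fold for Klrd1. Klrc3, between Klrk1 and Klrc2, held 0, 3 and 2.05 counts in overexpressing libraries and 0, 2 and 0 in wild-type libraries. Klrg1, Klrb1c and Klra8 lie elsewhere on chromosome 6, and Ncr1 lies on chromosome 7.

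Levels of different genes were compared only per kilobase of merged exon, with exon lengths from the GENCODE M21 annotation, whose release may differ from the one the authors used. In FTO-overexpressing lungs Klrc1 was highest at 18.6 ± 5.62 CPM per kilobase (SD, n = 3), followed by Klrd1 at 14.0 ± 5.26 and Klrg1 at 11.6 ± 4.58, and Klrd1 overlapped with both. Klrk1 came next at 5.15 ± 1.20 CPM per kilobase and overlapped neither with Klrg1 above it nor with Klrb1c below it. Klrb1c, Ncr1, Klrc2, Klra8 and Klre1 followed at 2.30 to 0.907 CPM per kilobase, each overlapping with the next. In wild-type lungs Klrd1 led at 3.05 ± 0.992 CPM per kilobase (SD, n = 3) and did not overlap with Klrc1, at 1.30 ± 0.419. From Klrc1 down to Klre1, at 0.315 ± 0.293 CPM per kilobase, each wild-type gene overlapped with the next.

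Set against Cd8a, which encodes a chain of the CD8 co-receptor, the shared receptors did not move as 1 block. The ratio of Klrc1 to Cd8a counts was 0.609, 0.499 and 0.528 in overexpressing lungs and 0.277, 0.270 and 0.234 in wild-type lungs. That of Klrg1 to Cd8a was 0.280, 0.183 and 0.260 in overexpressing lungs and 0.133, 0.142 and 0.181 in wild-type lungs, so its groups almost touched. Klrk1 to Cd8a overlapped, at 0.665, 0.507 and 0.498 in overexpressing lungs and 0.738, 0.688 and 0.602 in wild-type lungs. Klrd1 to Cd8a was lower in every overexpressing library, at 0.273, 0.235 and 0.274, than in every wild-type one, at 0.425, 0.433 and 0.333. Against Ncr1, the ratio of Klrc1 counts was 7.63, 12.3 and 24.3 in overexpressing lungs and 1.32, 2.53 and 4.00 in wild-type lungs. Klrd1 and Klrk1 overlapped between the groups against Ncr1. The ratio of Klrd1 to Ncr1 counts was 3.42, 5.81 and 12.6 in overexpressing lungs and 2.02, 4.07 and 5.70 in wild-type lungs, and that of Klrk1 to Ncr1 was 8.33, 12.5 and 22.95 in overexpressing lungs and 3.51, 6.47 and 10.3 in wild-type lungs. For Klrc1, Klrd1 and Klrk1 the lowest of these ratios to Ncr1 was that of wild-type replicate 1. The ratio of Klrb1c to Ncr1 overlapped, at 2.88, 2.19 and 2.09 in overexpressing lungs and 1.88, 2.87 and 3.70 in wild-type lungs. Cd8a and Ncr1 were themselves 7.03-fold and 2.08-fold higher in overexpressing lungs, and these ratios were read from the same comparison as the choice of the genes, so they are given without a test.

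**Figure D4:**
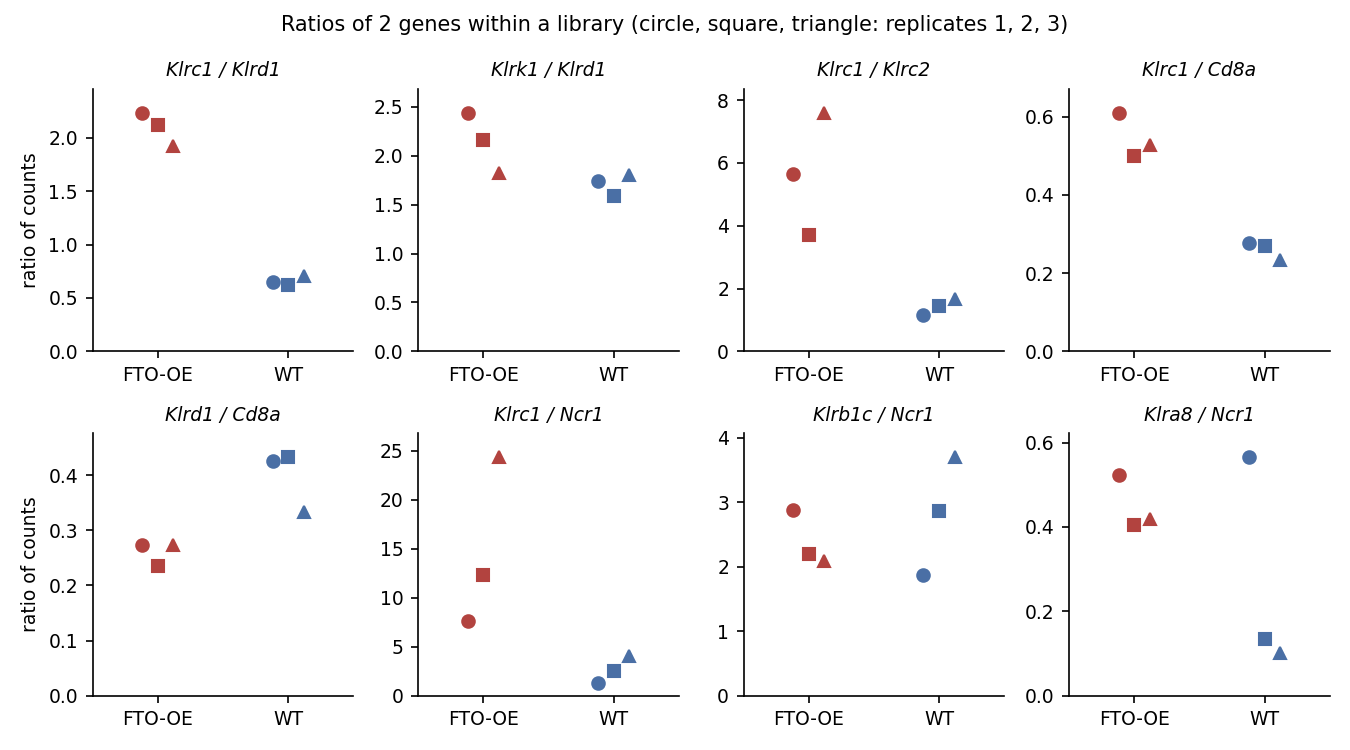
Ratio of the counts of 2 genes within each library, FTO-overexpressing (FTO-OE, red) left of wild-type (WT, blue); every axis starts at 0. Klrc1 / Klrd1 and Klrc1 / Cd8a separate the groups, Klrd1 / Cd8a separates them the other way, and Klrb1c / Ncr1 overlaps.

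In edgeR's quasi-likelihood test with Benjamini-Hochberg adjustment over all 16913 genes, Klrc1, Klrg1 and Klrk1 had an adjusted p under 0.05, while 0.0769% of all genes tested were called higher in FTO-overexpressing lungs and 0.0946% in either direction. DESeq2 called Klrc2 and Klrd1 as well, 5 of the 9, and 1.99% of the genes it adjusted higher; limma-voom called 0 of the 9 and 0.0118% of all genes higher. An unadjusted p under 0.05 was reached by 7 of the 9 genes and by 9.48% of all genes tested. For 6 of the 9 genes, Klrc1, Klrc2, Klrd1, Klrg1, Klrk1 and Klre1, all overexpressing libraries lay above all wild-type libraries, against 7.93% of all genes tested. The genes were chosen with this comparison known, so nothing is read from these counts. The 3 calls depended on single libraries: leaving out replicate 2 of the overexpressing group, or either replicate 2 or replicate 3 of the wild-type group, left 0 of the 9 genes called, while 4 were called without overexpressing replicate 1, the added gene being Klrd1. Without wild-type replicate 1 only Klrc1 and Klrk1 were called, and without overexpressing replicate 3 only Klrc1 and Klrg1. Over all genes tested, 45, 1 and 6 were called higher without overexpressing replicates 1, 2 and 3. Without wild-type replicates 1, 2 and 3 there were 9, 1 and 1.

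The remaining Klr genes were followed by a rule of name alone, every symbol starting with Klr that is not among the 9. Of 23 such genes, 10 passed the filter. By edgeR 0 of the 10 were called, beside 0.0946% of all genes tested, and 1 had an unadjusted p under 0.05, beside 9.48% of all genes tested, a share near that background. DESeq2 called 1 higher, beside 1.99% of the genes it adjusted, and limma-voom 0, beside 0.0118% of all genes tested. The median log2 fold change of the 10 was 0.58, with 8 above 0. Klra7, which encodes the inhibitory receptor Ly49G2, had the smallest p: it was at 1.53, 1.42 and 1.66 CPM in overexpressing lungs and at 0.597, 0.210 and 0.165 CPM in wild-type lungs, 4.68-fold higher (95% interval 2.19 to 10.01; edgeR adjusted p = 0.154). Klrb1b, an inhibitory relative of Klrb1c, was at 8.65, 5.69 and 6.23 CPM in overexpressing lungs and at 6.57, 9.78 and 6.66 CPM in wild-type lungs, with overlapping groups. Klra2, which myeloid cells express, overlapped at 34.2, 16.7 and 18.4 CPM in overexpressing lungs and 24.5, 13.9 and 13.9 CPM in wild-type lungs. Klra9, which lies beside Klra8, overlapped likewise, with 35, 22 and 19 counts in overexpressing replicates 1, 2 and 3 and 29, 8 and 18 in wild-type replicates 1, 2 and 3. The other 6 tested genes, Klra17, Klrb1f, Klri2, Klra3, Klrg2 and Klra4, had adjusted p of 0.665 to 0.975.

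The activating receptors signal through adaptors that carry the tyrosine motifs they lack themselves. NKG2D uses DAP10 (gene Hcst) and, in mouse, also DAP12 (gene Tyrobp), and the activating Ly49 receptors use DAP12. The adaptor genes did not follow the receptors together. Hcst was at 5.65, 5.75 and 8.49 CPM in FTO-overexpressing lungs and at 2.50, 1.84 and 2.09 CPM in wild-type lungs, 3.09-fold higher (95% interval 2.09 to 4.59; edgeR adjusted p = 0.0854). Tyrobp, which myeloid cells also express, was at 92.5, 56.3 and 70.7 CPM in overexpressing and at 99.1, 60.9 and 51.7 CPM in wild-type lungs, a ratio of 1.04 (95% interval 0.677 to 1.59). Of 20 signalling partners tested, 0 were called by edgeR, and 7 had an unadjusted p under 0.05, all higher, beside 9.48% of all genes tested in either direction. DESeq2 called 7 higher, beside 1.99% of the genes it adjusted, and limma-voom 0, beside 0.0118% of all genes tested. The median log2 fold change was 0.17. The 7 with p under 0.05 include Zap70, the kinase of the T cell receptor and of some NK receptors, at 2.60-fold (edgeR adjusted p = 0.109), the CD3 zeta gene Cd247 at 3.32-fold (0.131) and the adaptor gene Lat at 3.25-fold (0.106). All overexpressing libraries lay above all wild-type ones for 7 of the 20, beside 7.93% of all genes tested.

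Ligands of these receptors were measured in the same lungs. H2-T23, which encodes the Qa-1 molecule that NKG2A and NKG2C bind, was at 290.6, 222.9 and 275.3 CPM in overexpressing lungs and at 242.0, 194.5 and 163.8 CPM in wild-type lungs, with overlapping groups and a 1.31-fold difference (95% interval 1.02 to 1.70, adjusted p = 0.497 by edgeR). Ulbp1, a ligand of NKG2D, was at 11.5, 19.8 and 14.0 CPM in overexpressing lungs and at 8.85, 10.8 and 9.47 CPM in wild-type lungs, 1.55-fold higher (edgeR adjusted p = 0.376). Cdh1, the E-cadherin gene and a ligand of KLRG1, was at 324.8, 322.9 and 311.9 CPM in overexpressing lungs and at 341.0, 370.7 and 397.3 CPM in wild-type lungs, 0.865 times the wild-type level (edgeR adjusted p = 0.498). H2-K1 and B2m, which encode the heavy and light chains of a classical MHC class I molecule, were 1.41-fold and 1.40-fold higher (edgeR adjusted p of 0.207 and 0.384), and H2-D1, another heavy chain gene, 1.28-fold (0.482). Of 23 listed ligands 19 were in the table and 13 were tested. By edgeR 0 were called, and 5 higher and 1 lower had an unadjusted p under 0.05, beside 9.48% of all genes tested. DESeq2 called 1 higher, beside 1.99% of the genes it adjusted, and limma-voom 0, beside 0.0118% of all genes tested. Of the other NKG2D ligand genes, Raet1e had a ratio of 1.04 (edgeR adjusted p = 0.969) and H60c one of 1.53 (0.772), both with overlapping groups. The NKG2D ligand genes Raet1d and H60b did not pass the filter on low counts.

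Other receptors that NK and CD8 T cells share showed a wide spread of differences. All 20 had positive log2 fold changes, beside 51.4% of all genes tested, with a median of 0.69. By edgeR 0 were called, and 11 had an unadjusted p under 0.05, beside 9.48% of all genes tested. DESeq2 called 8 higher, beside 1.99% of the genes it adjusted, and limma-voom 0, beside 0.0118% of all genes tested. Il18rap, a chain of the interleukin-18 receptor, was at 59.9, 83.0 and 80.5 CPM in overexpressing lungs and at 28.1, 13.7 and 15.1 CPM in wild-type lungs, 3.93-fold higher (95% interval 2.52 to 6.13; edgeR adjusted p = 0.0722). Cd96, a receptor of the nectin family's ligands, was 3.91-fold (edgeR adjusted p = 0.0989), Il2rb, a chain of the interleukin-2 and interleukin-15 receptors, 3.04-fold (0.127) and the adhesion gene Cd2 1.95-fold higher (0.137). Il18r1, the other chain of the interleukin-18 receptor, had a ratio of 1.10 with overlapping groups, and Cd244a, the NK receptor 2B4, one of 1.04.

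**Figure D5:**
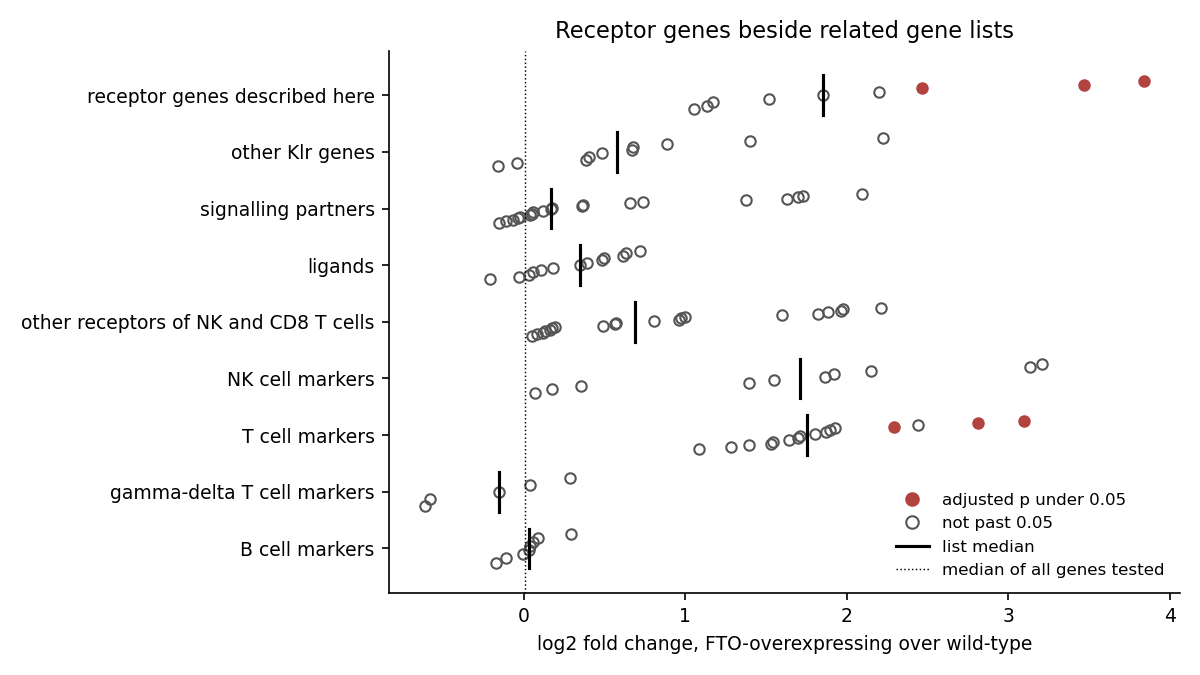
log2 fold change of every tested gene of each list, FTO-overexpressing over wild-type; filled points had an edgeR adjusted p under 0.05, vertical bars are list medians and the dotted line is the median of all genes tested. The 9 receptor genes have a median of 1.85, T cell markers 1.76, NK cell markers 1.71 and B cell markers 0.035.

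Markers of the cells that can carry the receptors differed in the same direction, and their part in the receptor values was not tested. All 16 T cell markers lay higher in every overexpressing library than in any wild-type one, as did 7.93% of all genes tested, with a median log2 fold change of 1.76. By edgeR Cd8a, Cd8b1 and Lck were called, beside 0.0769% of all genes tested called higher. Cd8a and Cd8b1, the genes of both CD8 chains, were 7.03-fold and 8.58-fold higher (edgeR adjusted p of 0.0300 and 0.0363), and Lck, the kinase bound to CD8, 4.89-fold (0.0300). Next by p were Themis, a T cell signalling gene, the T cell receptor gene Trbc1 and the CD3 genes Cd3e and Cd3g, at 5.44-, 3.81-, 3.50- and 3.27-fold (edgeR adjusted p of 0.0700 to 0.0908). The T cell markers' summed level was 363.8 to 774.7 CPM in overexpressing lungs and 112.1 to 155.8 CPM in wild-type lungs, and none of them was at 0. The number called was 7 without overexpressing replicate 1, 1 without overexpressing replicate 3, and 0 when overexpressing replicate 2 or any 1 of the wild-type libraries was left out. Over all genes tested, 45, 1 and 6 were called higher without overexpressing replicates 1, 2 and 3. Without wild-type replicates 1, 2 and 3 there were 9, 1 and 1. Of 12 NK cell markers 10 were tested and all 10 had positive values, beside 51.4% of all genes tested, with a median of 1.71. By edgeR 0 were called and 8 had an unadjusted p under 0.05, beside 9.48% of all genes tested. DESeq2 called 5, beside 1.99% of the genes it adjusted, and limma-voom 0, beside 0.0118% of all genes tested. Their summed level was 254.8 to 410.4 CPM in overexpressing lungs and 119.1 to 155.1 CPM in wild-type lungs, and none was at 0 in all libraries; Xcl1 and Khdc1a did not pass the filter. Highest by fold were the granule genes Gzma, at 9.23-fold (edgeR adjusted p = 0.0514), Nkg7, at 8.79-fold (0.0700), and Prf1, at 4.43-fold (0.101). Eomes was 3.79-fold (edgeR adjusted p = 0.264), S1pr5 3.65-fold (0.250) and Cma1 2.93-fold higher (0.498). The chemokine gene Ccl4 was 2.64-fold higher (0.206), while Itga2, the gene of the NK marker CD49b, had a ratio of 1.05. These lists were drawn up with the T cell and cytotoxic results of these data known. Gamma-delta T cell markers had a median of -0.15 over 5 tested genes and B cell markers one of 0.035 over 8, with summed levels of 112.3 to 119.2 CPM in overexpressing and 66.5 to 169.8 CPM in wild-type lungs. Myeloid markers had a median of -0.080 over 12 and lung epithelial and endothelial markers one of -0.14 over 12, with 0 calls by edgeR, DESeq2 or limma-voom in each of these 4 lists and unadjusted p under 0.05 for 1 gene, Cldn5.

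Genes with the pattern most like the receptors were found over 13407 other genes with an average log2 CPM of at least 1, by the same distance over 6 libraries. Nearest to the mean profile of the 9 were Il18rap (0.17), S1pr5 (0.24), Prf1 (0.29), Acsbg1 (0.31) and Ms4a6b (0.33). Nearest to Klrc1 were the chemokine gene Ccl5 (0.081), Gzma (0.33), Nkg7 (0.40), Fto itself (0.41) and Cd8b1 (0.42). Ccl5 was much closer to Klrc1 than any of the other 8 receptor genes. Nearest to Ncr1 were Smpdl3b (0.32), Serpinb10 (0.32), Ido1 (0.34), Adgre4 (0.35) and Phf11a (0.37), and Klrb1c, at 0.29, was closer than any of them. Klrc1 and Ncr1 lay 1.41 apart, so lists this close to each could not share a gene. The distance includes the difference between the groups, so it follows the fold changes in part.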

How the data were processed

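Polyadenylated RNA of 6 mouse lung samples was sequenced from stranded libraries, per the labels' protocols. The submitters' processing notes name fastp, HISAT2 and StringTie, without versions; neither the genome build, the annotation nor the counting program is given in the sources used here, nor is the use of strand. The authors deposited expected counts (estimated reads per gene, not scaled to depth). Per library 9.66% to 10.3% of all rows were fractional, and 23.2% to 24.0% of the rows with counts. Rows without a symbol took 0.119% to 0.143% of counts and were left out. Counts were rounded and tested in R 4.3.3 with edgeR 4.0.16 (filterByExpr, TMM, quasi-likelihood F-test, group as the only term, Benjamini-Hochberg adjustment, threshold 0.05); 16913 genes were tested. Standard errors and 95% intervals were derived from the F statistic and cover the spread between these libraries. Libraries of 1 group differed by more than counting noise. Profile distances used log2 CPM with a prior count of 2.

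The 9 genes and all lists were chosen with earlier results of these data known. Named were the 9 genes, each Klr gene past the filter, from each other list the genes past the threshold and up to 4 more with the smallest p, and the 5 nearest patterns. Of the listed genes 6 were not found and 3 were matched through reference names. GENCODE M21 lengths covered 51884 of 57180 rows. The procedure was tested on simulated counts. Named outside this rule, after their values were seen, were Klrc3, Tyrobp, H2-T23, Cdh1, Raet1d, H60b, Il18r1, Cd244a, Xcl1, Khdc1a and Itga2. The values of Raet1e, H60c, Eomes, S1pr5 and Cma1 were likewise added after they were seen. The alternatives were scaling by RLE or upper quartile, testing without a filter or with one on a mean of 50 counts, a block for the replicate number, leaving out haemoglobin genes, DESeq2 1.42.0, limma-voom (limma 3.58.1), other thresholds and leaving out each library.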

Additional observations from a re-analysis of the deposited data

How the results depend on the processing

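All 9 fold changes were above 0 in every alternative that tested the gene; the filter on a mean of 50 counts left out Klre1, Klra8 and Ncr1. Calls changed with the tool and the filter. DESeq2 called 336 genes higher and 86 lower (edgeR 13 and 3), among them 5 of the 9 receptor genes with Klrc2 at 1.85 and Klrd1 at 2.20 on the log2 scale, 7 signalling partners, 8 other receptors, 1 ligand, 1 other Klr gene, 5 NK cell and 16 T cell markers. Without a filter edgeR called 223 higher and 32 lower, 5 of the 9 (Klrc2 at 1.85 and Klrd1 at 2.20), 6 partners, 6 other receptors, 1 other Klr gene, 4 NK cell and 14 T cell markers. limma-voom called 2 genes higher, 0 of the 9 and 0 T cell markers, with log2 values of 3.83 for Klrc1, 3.44 for Klrg1 and 2.49 for Klrk1.

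The replicate number as a block left 2 genes called higher and 0 lower, 0 of the 9 and 0 T cell markers. Log2 values were 3.82 for Klrc1, 3.43 for Klrg1 and 2.48 for Klrk1. With this block Klrb1c was 2.25-fold higher (interval 1.53 to 3.31) and Ncr1 2.46-fold higher (1.19 to 5.07). The main fit gave intervals of 1.10 to 4.40 for Klrb1c and 0.844 to 5.13 for Ncr1. For Klrc1 the interval was wider with the block, at 8.03 to 24.7, than in the main fit, at 8.83 to 23.2. The Klra8 interval still included 1 with the block, at 0.924 to 13.4. Deviations of same-numbered libraries from their group means correlated at 0.11, -0.31 and -0.31 across genes. No overexpressing library correlated best with the wild-type library of its own number. For overexpressing replicate 1 the values were nearly equal, at 0.107 with wild-type replicate 1 and 0.111 with wild-type replicate 2. By the chi-square over degrees of freedom between the counts of 2 libraries, these replicates 1 were the closest of all pairs, at 20.8. Pairs within a group had 27.9 to 48.8, and the same-numbered pairs 2 and 3 had 40.1 and 41.6. The haemoglobin share fell from replicate 1 to replicate 3 in both groups. Whether same-numbered libraries share more than a number cannot be told from these values. At a threshold of 0.01, 1 gene was called higher and 0 lower, 0 of the 9 and 0 T cell markers. At 0.1, 57 genes were called higher and 13 lower. Among them were 4 of the 9, 1 partner, 2 other receptors, 2 NK cell and 8 T cell markers.

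Without 1 library, genes called higher ran from 1 to 45 and lower from 0 to 4, the 9 receptor genes called from 0 to 4, T cell markers from 0 to 7, NK cell markers from 0 to 2, other receptors from 0 to 1 and partners from 0 to 1. Log2 fold changes ran from 3.60 to 4.14 for Klrc1, 3.09 to 3.65 for Klrg1, 2.29 to 2.79 for Klrk1, 1.88 to 2.51 for Klrd1, 1.53 to 2.36 for Klrc2, 1.13 to 2.62 for Klre1, 0.77 to 1.67 for Klrb1c, 0.64 to 3.87 for Klra8 and 0.69 to 2.04 for Ncr1. The median of the 9 ran from 1.53 to 2.62, highest without wild-type replicate 1. The cause of these changes was not tested.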
